A study of Homo sapiens with 6 samples.

Results

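Metallothioneins and the genes that set their zinc supply were examined as 10 rows, chosen by gene symbol, of the 61806 genes in the deposited expression table. They were 6 metallothionein genes (MT2A, MT1E, MT1X, MT1F, MT1M and MT1G), the metal-responsive transcription factor gene MTF1, the zinc exporter gene SLC30A1 and the zinc importer genes SLC39A10 and SLC39A14. In the UVB + sauchinone group, with 3 libraries, the cells were HFF cells, wild-type human foreskin fibroblasts supplied by a cell bank, that received 40 mJ per cm2 of ultraviolet B (UVB) and then 10 µM sauchinone, a plant lignan, over 48 h of culture. The UVB group, also with 3 libraries, held the same cells given the same UVB dose and vehicle. All 6 libraries carry 1 batch label. Both groups were therefore irradiated, and unirradiated cells were not analysed here. The protocol also describes a version with 4 h of sauchinone before irradiation, and the labels do not say which version these libraries represent.

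Metallothioneins are small cysteine-rich proteins that hold zinc and copper and capture cadmium. Free zinc activates MTF1, which binds short promoter sequences called metal response elements and drives metallothionein genes and SLC30A1. SLC30A1 protein exports zinc across the plasma membrane, whereas the SLC39 (ZIP) family brings zinc into the cytoplasm, and SLC39A14 also carries iron and manganese. In skin cells metallothioneins are known as scavengers of oxidants and are induced by metals, glucocorticoids and oxidative stress.

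The promoter sequences of 3 of the genes that rose are shown because they differ in how many metal response elements lie before the start of transcription. Each is the 250 bases before the RefSeq start (GRCh38.p14), 5′ to 3′ on the strand of the gene, with each match to the metal response element core in capitals. They lie at chr16:56608334-56608583 (plus strand, MT2A), chr16:56682220-56682469 (plus strand, MT1X) and chr1:211579162-211579411 (minus strand, SLC30A1).
MT2A: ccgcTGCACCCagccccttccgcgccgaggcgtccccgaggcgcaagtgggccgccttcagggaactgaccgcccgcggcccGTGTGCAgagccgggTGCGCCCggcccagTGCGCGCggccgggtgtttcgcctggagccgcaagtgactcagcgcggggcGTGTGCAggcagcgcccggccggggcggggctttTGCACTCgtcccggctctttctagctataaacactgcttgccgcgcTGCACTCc
MT1X: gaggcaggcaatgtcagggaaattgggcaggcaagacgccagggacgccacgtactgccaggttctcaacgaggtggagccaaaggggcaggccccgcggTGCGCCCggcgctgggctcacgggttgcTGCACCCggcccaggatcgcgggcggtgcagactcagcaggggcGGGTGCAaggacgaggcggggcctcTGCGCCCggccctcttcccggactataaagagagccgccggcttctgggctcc
SLC30A1: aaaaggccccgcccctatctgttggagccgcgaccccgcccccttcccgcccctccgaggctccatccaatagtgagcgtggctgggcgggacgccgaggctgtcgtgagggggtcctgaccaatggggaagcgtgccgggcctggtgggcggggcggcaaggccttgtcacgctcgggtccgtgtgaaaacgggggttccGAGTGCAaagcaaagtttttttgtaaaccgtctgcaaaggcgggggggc

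The core was searched on both strands as TGCACNC or TGCGCNC. MT2A held 7 matches, at bases −246, −168, −153, −139, −88, −54 and −8 from the start. MT1X held 4, at −150, −122, −78 and −53, and SLC30A1 held 1, at −49. At least 1 match was found in 24.8% of the 35116 promoter windows of the same length in the RefSeq table, at least 4 in 0.370% and at least 7 in 0.0313%. The letters TGACNNNGC, the core of the antioxidant response element, occurred once each in MT2A (−104), MT1X (−243) and SLC30A1 (−88), and in 10.9% of all windows. The TATA box letters TATAAA occurred in MT2A (−29) and MT1X (−30) and in 10.7% of all windows. None of these letters overlapped one another in these promoters, and none occurred in the windows of MTF1 and of the 2 starts of SLC39A10. The table gave promoters for 5 of the 10 genes, and MT1E, MT1F, MT1M, MT1G and SLC39A14 have no entry in it. A match to these letters describes the sequence and does not show that a factor binds there.

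**Figure D1:**
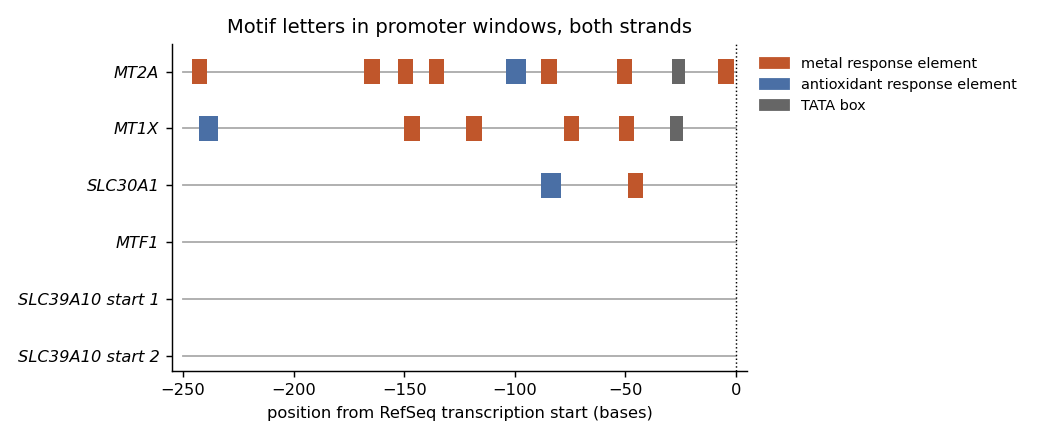
Position of motif letters in the 250 bases before each RefSeq start (x axis, bases from the start), one line per promoter, with metal response elements in orange, antioxidant response elements in blue and TATA boxes in grey. MT2A holds 7 metal response element matches, MT1X 4 and SLC30A1 1, and the lines of MTF1 and SLC39A10 are empty.

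With sauchinone, MT2A, MT1X, MTF1, SLC30A1 and SLC39A14 rose, by 1.29-fold to 1.67-fold, and no member fell. MT1E and SLC39A10 did not pass the test, and MT1F, MT1M and MT1G had too few counts to be tested. Thus 5 of the 7 tested members were called, all higher, in edgeR's quasi-likelihood test with an adjusted p under 0.05 over the 15704 genes tested. Of all tested genes 49.6% were called, 24.7% higher and 24.9% lower, and against that background the 5 calls in 7 are no result about these genes as a set. The median log2 fold change was 0.49 over the 7 tested members and 0.0071 over all tested genes. The groups did not overlap in these 5 members, against 57.1% of all tested genes in either direction and 28.6% with UVB + sauchinone higher. The labels do not say whether replicates were separate cultures. The p-values therefore rest on differences among these libraries that could be technical.

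Total counts per library were 21645464 to 23076388 in UVB + sauchinone and 20984851 to 23075536 in UVB, and 3 counts, taken as the floor of detection for counting error alone, equalled 0.130 to 0.143 CPM (counts scaled to a common library size). All 10 fibroblast markers were detected and tested, and 9 were called lower, against 24.9% lower among all tested genes. They summed to 13577 to 13878 CPM in UVB + sauchinone and 19312 to 21064 CPM in UVB. The keratinocyte list (8 genes) summed to 476 to 537 CPM against 638 to 691 CPM, nearly all from the desmoplakin gene DSP, with KRT5, KRT1 and DSG3 at 0 in all libraries. Melanocyte, endothelial and immune lists each stayed under 8 CPM in every library, with DCT, CDH5, KDR and CD3E at 0. Of their tested genes, MLANA and TEK were called lower (log2 fold changes −1.56 and −1.47), MLANA at only 5 to 33 counts per library. PMEL, CD68 and LYZ did not pass, with log2 fold changes of 0.50, 0.33 and 0.87. Of 8 pericyte and smooth muscle markers 7 were tested and 5 were called lower, against 24.9% lower among all tested genes. MYH11 and KCNJ8 did not pass, with log2 fold changes of 0.48 and 0.059. The list summed to 173 to 189 CPM against 357 to 359 CPM. The part of any of these cell types in the results below was not tested. In bulk RNA fewer cells of a type and less RNA per cell cannot be told apart.

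**Figure D2:**
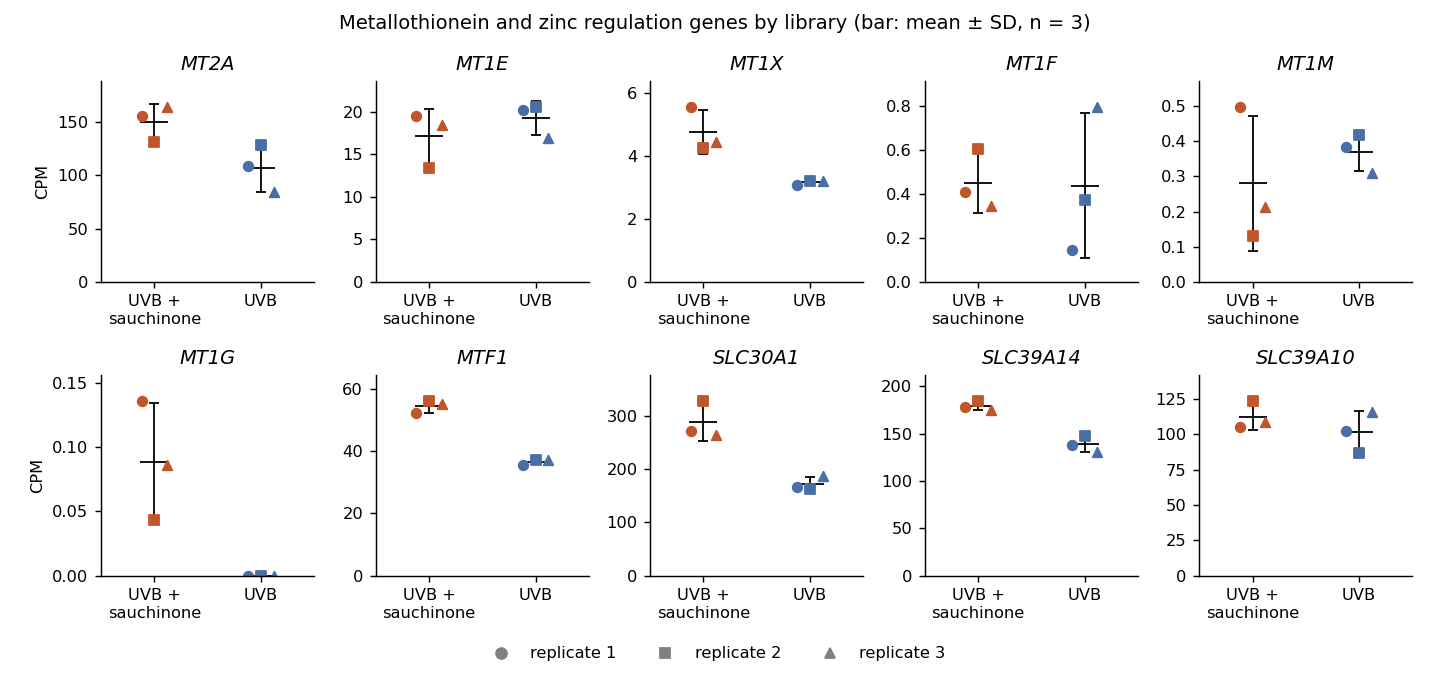
Level of each of the 10 genes (y axis, CPM on TMM-adjusted library sizes) in every library, UVB + sauchinone left and UVB right, with replicates as circle, square and triangle and bars for mean ± SD (n = 3). In MT2A, MT1X, MTF1, SLC30A1 and SLC39A14 every UVB + sauchinone point lies above every UVB point, and MT1F, MT1M and MT1G stay under 1 CPM.

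MTF1, the zinc sensor that activates metallothionein transcription (ENSG00000188786, chromosome 1 at 37809574 to 37859592, minus strand, GRCh38), rose. It was at 52.1, 56.1 and 55.3 CPM in UVB + sauchinone replicates 1, 2 and 3, against 35.6, 37.1 and 37.3 CPM in UVB replicates 1, 2 and 3. The groups were well apart and each was tight, with means of 54.5 ± 2.11 CPM and 36.6 ± 0.89 CPM (SD, n = 3 each). The log2 fold change was 0.57 ± 0.086 (SE; edgeR adjusted p = 8.7e-06), a 1.49-fold rise. An antisense gene, ENSG00000235673, overlaps MTF1 over 691 bases, with 4 counts in all UVB + sauchinone libraries and 5 in all UVB libraries.

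MT2A, the main metallothionein of most human cells (ENSG00000125148, chromosome 16 at 56608584 to 56609497, plus strand), rose 1.40-fold. It was at 155, 131 and 164 CPM in UVB + sauchinone replicates 1, 2 and 3, against 108, 128 and 83.9 CPM in UVB replicates 1, 2 and 3. The lowest treated library, replicate 2, lay just above the highest UVB library, also replicate 2. The means were 150 ± 17.0 CPM and 107 ± 22.3 CPM, and the log2 fold change was 0.49 ± 0.11 (edgeR adjusted p = 0.00093). Without UVB replicate 3, in which MT2A was lowest, the log2 fold change was 0.34 (edgeR adjusted p = 0.00125). The 3141 tested genes with the smallest exonic size (62 to 2467 bases), a range that holds all 6 metallothionein members, also lay lowest in UVB replicate 3, at a median of −0.052 from the group mean on the log2 scale, and highest in UVB replicate 2, at 0.049. Their median log2 fold change was 0.13, against −0.22 in the 3141 genes with the largest size (8592 to 205012 bases). After offsets removed any trend of counts with exonic size, the log2 fold change of MT2A was 0.40 (edgeR adjusted p = 0.0037). With the trend with genomic span removed instead, it was 0.32 (edgeR adjusted p = 0.023). The part of gene length in the rise was not tested beyond these values.

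MT1X, a metal-inducible metallothionein (ENSG00000187193, chromosome 16 at 56682470 to 56684196, plus strand), rose 1.50-fold at a much lower level. It had 123, 99 and 104 counts in UVB + sauchinone replicates 1, 2 and 3, against 64, 69 and 73 counts in UVB replicates 1, 2 and 3. These were 5.56, 4.28 and 4.46 CPM against 3.08, 3.20 and 3.22 CPM, with replicate 1 the highest treated library and the UVB libraries almost level. The log2 fold change was 0.59 ± 0.19 (edgeR adjusted p = 0.013). Leaving out UVB + sauchinone replicate 1 ended the call (0.47, edgeR adjusted p = 0.084). So did removal of the span trend (0.38, edgeR adjusted p = 0.103) or of the exonic size trend (0.44, edgeR adjusted p = 0.058).

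MT1E, a further metal-binding metallothionein (ENSG00000169715, chromosome 16 at 56625475 to 56627112, plus strand), did not pass the test. It was at 19.5, 13.4 and 18.5 CPM in UVB + sauchinone replicates 1, 2 and 3, against 20.3, 20.6 and 17.0 CPM in UVB replicates 1, 2 and 3. The groups overlapped, with treated replicate 2 the lowest of all. The log2 fold change was −0.17 ± 0.13, with a 95% interval of −0.43 to 0.088 (edgeR adjusted p = 0.30). It passed as lower after removal of the span trend (−0.37, edgeR adjusted p = 0.023) or the GC trend (−0.27, edgeR adjusted p = 0.044). Without UVB + sauchinone replicate 2 it was −0.022 (edgeR adjusted p = 0.907).

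The other metallothioneins were close to the limit of detection. MT1F had 9, 14 and 8 counts in UVB + sauchinone replicates 1, 2 and 3 and 3, 8 and 18 counts in UVB replicates 1, 2 and 3. MT1M had 11, 3 and 5 counts in UVB + sauchinone and 8, 9 and 7 counts in UVB. Over the group sums the ratio of UVB + sauchinone to UVB was 1.05 for MT1F, with a 95% exact counting interval of 0.609 to 1.80. For MT1M it was 0.774, with an interval of 0.401 to 1.47. These intervals hold counting error only and leave out the spread between libraries. No difference was detectable at this depth. MT1G had 3, 1 and 2 counts in UVB + sauchinone and 0 in every UVB library. All of these are at or under the floor of 3 counts, so no fold is given for MT1G.

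The cluster on chromosome 16 holds 16 metallothionein genes and pseudogenes in 119 kb of the deposited annotation, from MT4 to MT1X. Of 15 further metallothionein rows, 9 had no count in any library and 1, the transcribed pseudogene MT1L, had enough to be tested. MT1L was at 2.61 ± 0.20 CPM in UVB + sauchinone and 2.65 ± 0.35 CPM in UVB, which differed by −0.023 ± 0.22 on the log2 scale (edgeR adjusted p = 0.945), and the sign turned in 4 of 17 alternatives. Summed over all 21 metallothionein rows, the level was 184, 153 and 190 CPM in UVB + sauchinone replicates 1, 2 and 3, against 136, 156 and 107 CPM in UVB replicates 1, 2 and 3. The summed levels of the groups overlapped, since treated replicate 2 lay below UVB replicate 2. Without MT2A, the family had 642, 499 and 610 counts in UVB + sauchinone and 564, 593 and 534 counts in UVB, which overlap as well.

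MT2A took 85.4% ± 1.06 of metallothionein counts in UVB + sauchinone and 80.1% ± 2.16 in UVB, and MT1E took 9.71% ± 0.89 and 14.7% ± 1.34 (SD, n = 3 each). Within each library the ratio of MT2A to MT1E counts was 7.96, 9.75 and 8.85 in UVB + sauchinone replicates 1, 2 and 3, against 5.35, 6.24 and 4.94 in UVB replicates 1, 2 and 3. The ratio of MT1E to MT1X was 3.50, 3.14 and 4.15, against 6.58, 6.43 and 5.27. The groups did not overlap in either ratio, while the ratio of MT2A to MT1X overlapped (27.9, 30.6 and 36.8, against 35.2, 40.2 and 26.0). A two-sided exact permutation test gave p = 0.1 for each of the first 2 ratios, the smallest that 3 against 3 libraries allow, and 0.125 after adjustment over 5 ratios compared. For MT2A to MT1X the exact permutation p was 0.8. These ratios were chosen after the values were seen.

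**Figure D3:**
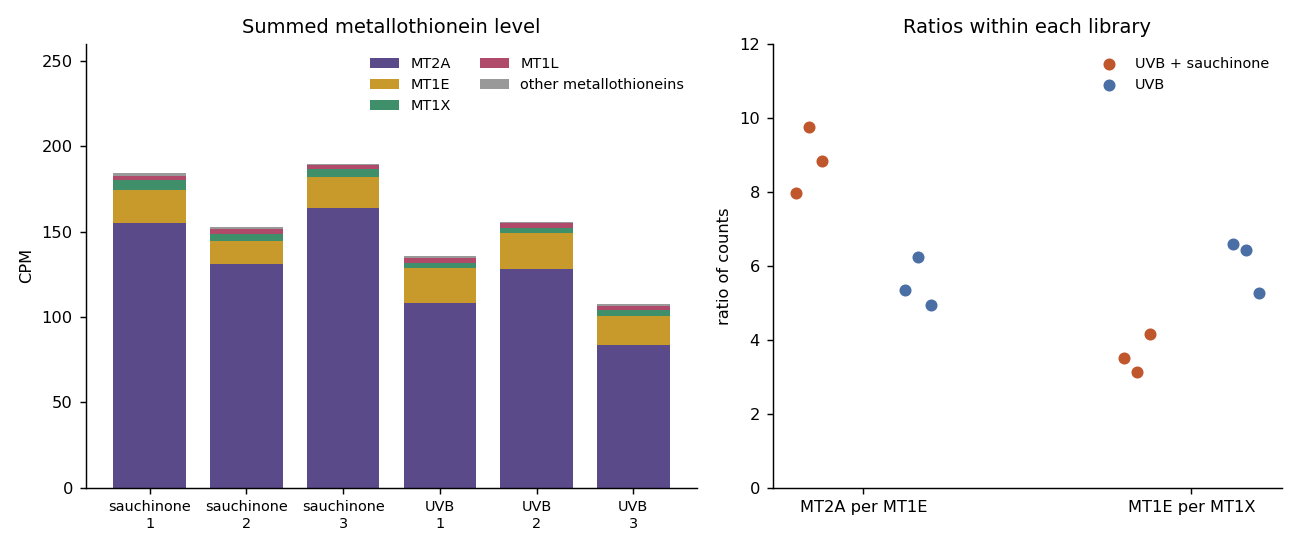
Left, summed level of metallothionein genes in each library (y axis, CPM), stacked by gene, the 3 UVB + sauchinone libraries left of the 3 UVB libraries. Right, ratios of counts within each library for 2 gene pairs, with UVB + sauchinone in orange left of UVB in blue: MT2A per MT1E runs from 7.96 to 9.75 against 4.94 to 6.24, and MT1E per MT1X from 3.14 to 4.15 against 5.27 to 6.58.

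Metallothionein genes are near copies, and the way reads that match several genes were counted is not given in the sources used here. The open reading frames of the 6 metallothionein members are 88.7% to 95.2% identical in pairs (GENCODE release 29). Of all stretches of 50 bases in annotated transcripts, 3.02% of those of MT2A, 7.10% of MT1E and 18.3% of MT1X also occur in transcripts of another gene. At 100 bases none were shared except 11.3% of MT1X, with ENSG00000259827. That gene, on the same strand, overlaps all of MT1X in the deposited annotation and had no counts. Values of single metallothioneins are therefore uncertain to the extent that reads were divided among copies.

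SLC30A1, the zinc exporter of the plasma membrane and a known MTF1 target (ENSG00000170385, chromosome 1 at 211571568 to 211579161, minus strand), showed the largest log2 fold change of the 7 tested members, except after removal of the span trend, where MTF1 and SLC39A10 were higher, and without UVB + sauchinone replicate 2, where MT1X was (0.66). It was at 270, 327 and 264 CPM in UVB + sauchinone replicates 1, 2 and 3, against 166, 162 and 186 CPM in UVB replicates 1, 2 and 3. Every treated library was far above every UVB library, and treated replicate 2 was the highest. The means were 287 ± 34.8 CPM and 171 ± 12.9 CPM, the fold 1.67 and the log2 fold change 0.74 ± 0.085 (edgeR adjusted p = 1.8e-07). The call held in each of the 17 alternatives, with log2 fold changes of 0.53 to 1.02. Its log2 fold change was above that of 91.1% of all tested genes.

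SLC39A14, the importer of zinc, iron and manganese (ENSG00000104635, chromosome 8 at 22367278 to 22434129, plus strand), rose 1.29-fold. It was at 179, 185 and 175 CPM in UVB + sauchinone replicates 1, 2 and 3, against 138, 148 and 131 CPM in UVB replicates 1, 2 and 3. The groups were separate, with means of 179 ± 4.74 CPM and 139 ± 8.54 CPM. The log2 fold change was 0.37 ± 0.074 (edgeR adjusted p = 0.00026), and it was 0.23 (edgeR adjusted p = 0.0019) after removal of the GC trend. The SLC30A1 counts per SLC39A14 count were 1.51, 1.77 and 1.51 in UVB + sauchinone, against 1.21, 1.09 and 1.42 in UVB. The two-sided exact permutation p was 0.1, the smallest possible, and 0.125 over 5 ratios. This ratio was chosen after the values were seen. With the span trend removed, the log2 fold changes of SLC30A1 (0.53) and SLC39A14 (0.46) were close. With the GC trend removed, they were far apart (1.02 and 0.23).

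SLC39A10, a plasma membrane zinc importer (ENSG00000196950, chromosome 2 at 195575977 to 195737702, plus strand), did not pass the test. It was at 105, 123 and 109 CPM in UVB + sauchinone replicates 1, 2 and 3, against 102, 86.9 and 116 CPM in UVB replicates 1, 2 and 3. The groups overlapped, with UVB replicate 3 above 2 of the treated libraries. The log2 fold change was 0.14 ± 0.095, with a 95% interval of −0.043 to 0.33 (edgeR adjusted p = 0.22). The gene spans 162 kb, and it passed as higher after removal of the span trend (0.61, edgeR adjusted p = 6.3e-06) or the GC trend (0.35, edgeR adjusted p = 8.5e-05). It also passed without UVB replicate 3 (0.24, edgeR adjusted p = 0.013), but was 0.037 without UVB replicate 2 (edgeR adjusted p = 0.756) and 0.068 without UVB + sauchinone replicate 2 (edgeR adjusted p = 0.642). The ratio of SLC30A1 to SLC39A10 counts was 2.57, 2.65 and 2.43 in UVB + sauchinone, against 1.62, 1.86 and 1.60 in UVB. The two-sided exact permutation p was 0.1, the smallest possible, and 0.125 over 5 ratios. This ratio too was chosen after the values were seen. Its shift depended on the setting. With the span trend removed, the log2 fold change of SLC30A1 (0.53) was below that of SLC39A10 (0.61). With the GC trend removed, SLC30A1 (1.02) stayed above SLC39A10 (0.35).

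Levels of different genes were compared per length, in the deposited FPKM (fragments per kilobase of exonic size, scaled to the library total). MT2A was highest, at 167 ± 20.2 FPKM in UVB + sauchinone and 115 ± 23.7 FPKM in UVB, followed by SLC30A1 at 49.4 ± 5.50 and 28.6 ± 2.15 FPKM and SLC39A14 at 26.3 ± 0.50 and 19.8 ± 1.16 FPKM. MT1E, at 16.6 ± 3.28 and 18.0 ± 1.86 FPKM, and SLC39A10, at 16.5 ± 1.26 and 14.5 ± 2.10 FPKM, overlapped each other in both groups, and MT1E also overlapped SLC39A14 in UVB. MTF1 stood at 6.92 ± 0.22 and 4.51 ± 0.087 FPKM and MT1X at 2.80 ± 0.43 and 1.80 ± 0.031 FPKM. MT1M, MT1F and MT1G were each under 1 FPKM in every library. The exonic size sums all annotated exons of a gene, which lowers the FPKM of genes such as MT1X and MT1F whose deposited sizes (1727 and 1852 bases) are large for a metallothionein.

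Of 10 SLC30 exporter genes 6 were tested, and 1 rose (SLC30A1) and 1 fell, against 49.6% called among all tested genes. The one that fell was SLC30A9, known as a zinc transporter of mitochondria, at 73.4 ± 3.67 CPM in UVB + sauchinone and 123 ± 9.25 CPM in UVB, with log2 fold change −0.75 ± 0.082 (edgeR adjusted p = 1.1e-07). SLC30A4, SLC30A5, SLC30A6 and SLC30A7, which load zinc into vesicles and the secretory pathway, did not pass, with log2 fold changes of 0.20, −0.15, −0.094 and 0.17. Their calls depended on the setting: the call or sign of SLC30A7 changed in 5 of 17 alternatives and that of SLC30A4 in 4. SLC30A7 passed as higher after removal of the span, exonic size or GC trend (0.33, 0.28 and 0.44), and SLC30A4 after removal of the exonic size or GC trend (0.28 and 0.35). SLC30A5 passed as lower without the span or exonic size trend (−0.19 each), and SLC30A5 and SLC30A6 turned sign without the GC trend (0.016 and 0.16). The median of the 6 was 0.038.

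Of 14 SLC39 importer genes 11 were tested, 4 rose and 2 fell, a share near that of all tested genes, with a median log2 fold change of 0.17. SLC39A3, a plasma membrane importer, was at 21.1 ± 2.65 CPM in UVB + sauchinone and 12.5 ± 1.46 CPM in UVB, with log2 fold change 0.76 ± 0.12 (edgeR adjusted p = 2.5e-05). SLC39A7, which releases zinc from the endoplasmic reticulum, SLC39A9 and SLC39A14 were the others that rose, the first 2 by 0.33 ± 0.070 and 0.20 ± 0.072. SLC39A8, a carrier of zinc, manganese and cadmium, was at 10.5 ± 0.91 CPM in UVB + sauchinone and 17.3 ± 0.17 CPM in UVB (log2 fold change −0.72 ± 0.12), and SLC39A11 at 7.19 ± 0.62 and 12.6 ± 0.20 CPM (−0.81 ± 0.13). After removal of the span trend, the calls of SLC39A7 (0.098), SLC39A8 (−0.20) and SLC39A11 (0.24) were lost, the last with a change of sign, and that of SLC39A9 was lost in 5 other alternatives. SLC39A8 and SLC39A11 span 180 and 447 kb. SLC39A1, SLC39A4, SLC39A6 and SLC39A13 did not pass, with log2 fold changes of 0.11, 0.10, 0.19 and 0.17. The call or sign of SLC39A6 changed in 5 of 17 alternatives, and it passed as higher without the GC trend (0.34, edgeR adjusted p = 2.5e-05). SLC39A1, SLC39A4 and SLC39A13 turned sign without the span trend (−0.095, −0.12 and −0.026) and without the GC trend (−0.098, −0.20 and −0.11).

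**Figure D4:**
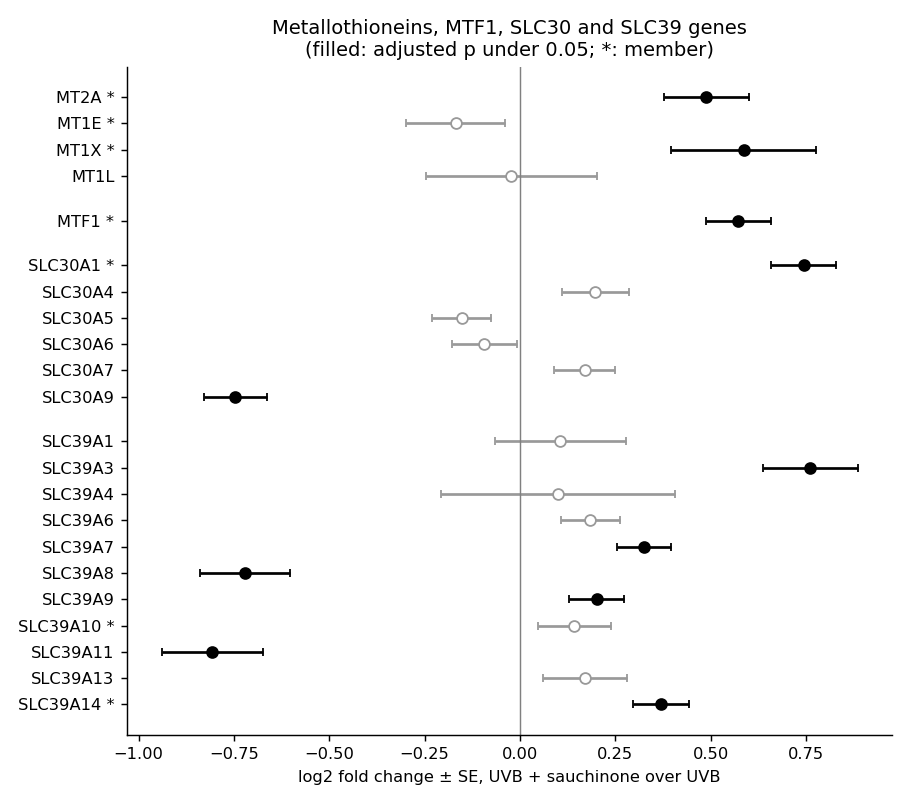
Log2 fold change of UVB + sauchinone over UVB (x axis) with its SE for tested metallothioneins, MTF1, SLC30 genes and SLC39 genes (y axis), filled where the edgeR adjusted p was under 0.05. SLC30A1 (0.74) and SLC39A3 (0.76) lie farthest right, and SLC39A11 (−0.81), SLC30A9 (−0.75) and SLC39A8 (−0.72) farthest left.

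Among 6 genes of zinc sensing and metal-responsive transcription, 5 were tested and 2 rose, MTF1 and EP300, against 24.7% higher among all tested genes. EP300, the gene of a histone acetyltransferase that acts as coactivator of MTF1, was at 122 ± 6.94 CPM in UVB + sauchinone and 93.9 ± 3.53 CPM in UVB, with log2 fold change 0.38 ± 0.078 (edgeR adjusted p = 0.00031). SP1, ZNF658 and NFE2L2 (the gene of NRF2) did not pass, with log2 fold changes of −0.068, −0.078 and 0.031. NFE2L2 passed as higher after removal of the span trend (0.54) or the exonic size trend (0.32). SP1 turned sign after removal of the exonic size trend (0.020) and ZNF658 after removal of the span or GC trend (0.047 and 0.033). These 3 genes were named after their values were seen.

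Of 12 copper handling genes, all tested, 3 rose and 2 fell, against 49.6% called among all tested genes, with a median of 0.11. SLC31A2, a copper transporter of intracellular membranes, was at 5.82 ± 1.17 CPM in UVB + sauchinone and 2.96 ± 0.19 CPM in UVB (log2 fold change 0.97 ± 0.20). SCO2 and SOD1, named after their values were seen, were the others called higher (1.61 and 0.28), and the call of SOD1 was lost after removal of the span trend (0.079, edgeR adjusted p = 0.358) or the exonic size trend (0.12, edgeR adjusted p = 0.149). The copper-exporting ATPase genes ATP7A and ATP7B fell by 0.53 ± 0.10 and 0.77 ± 0.16 on the log2 scale. The call of ATP7A was lost after removal of the span trend (−0.15) or the exonic size trend (−0.039).

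Of 12 stress genes known to respond to cadmium, 11 rose and 1 did not pass, against 24.7% higher among all tested genes. Their median log2 fold change was 1.14. HMOX1, the haem-degrading enzyme gene, rose by 1.55 ± 0.085, GADD45B, a stress-response gene, by 1.71 ± 0.12 and HSPA1B, a heat shock protein gene whose counts are uncertain beside its near-identical copy HSPA1A, by 1.45 ± 0.11. Of 12 glucocorticoid-induced genes 11 were tested, 8 rose and 2 fell, against 24.7% higher and 24.9% lower among all tested genes. Their median was 1.02. CRISPLD2, a secreted protein gene, GLUL, the glutamine synthetase gene, and DUSP1, a MAP kinase phosphatase gene, rose by 1.57 ± 0.11, 1.05 ± 0.082 and 1.02 ± 0.084. FKBP5 and KLF9, also classic glucocorticoid targets, fell, by 0.41 ± 0.11 and 0.39 ± 0.11 on the log2 scale; both were named after their values were seen. The call of FKBP5 was lost after removal of the span (0.018), exonic size (−0.23) or GC trend (−0.24), the first with a change of sign, and that of KLF9 without UVB replicate 1. Metallothionein rises (0.49 for MT2A and 0.59 for MT1X) were smaller than the medians of both lists. Both lists hold genes already known from these data to rise, so neither their direction nor the size of their medians is independent evidence. The comparison of sizes was in part settled by the choice of genes.

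Of 11 zinc-dependent ectoenzyme genes 7 were tested, and 6 fell and none rose, against 24.9% lower among all tested genes. Their median was −0.55, and the list was chosen with earlier results of these data known. MME, the gene of the zinc peptidase neprilysin, was at 141 ± 17.4 CPM in UVB + sauchinone and 366 ± 80.7 CPM in UVB (log2 fold change −1.38 ± 0.11). ENPP1 and ENPP2, ectonucleotide pyrophosphatase genes, fell by 0.60 ± 0.081 and 0.55 ± 0.087 on the log2 scale. After removal of the span trend MME, ENPP1 and ENPP2 stood at −0.922, −0.435 and −0.266, each still called.

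The tested genes whose pattern over the 6 libraries was most like the mean of the standardised log2 CPM of MT2A, MT1E and MT1X were CUL7, DPP7, NECAP2, HS3ST3B1 and SLC16A5, with Pearson correlations of 0.997, 0.994, 0.993, 0.986 and 0.985. The libraries share 2 groups and 1 batch label, and the best 5 of 15697 genes were taken, so these values are a description. The mean includes MT1E, which did not rise, and it overlapped between the groups (−0.41 in UVB + sauchinone replicate 2, 0.039 in UVB replicate 2). It is therefore not the pattern of MT2A and MT1X alone. None of the 5 genes passed the test between the groups, and their log2 fold changes ran from 0.064 (NECAP2) to 0.31 (SLC16A5). Like the metallothionein mean, CUL7 was highest in UVB + sauchinone replicate 1 (59.7 CPM) and lowest in UVB replicate 3 (45.9 CPM).

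**Figure D5:**
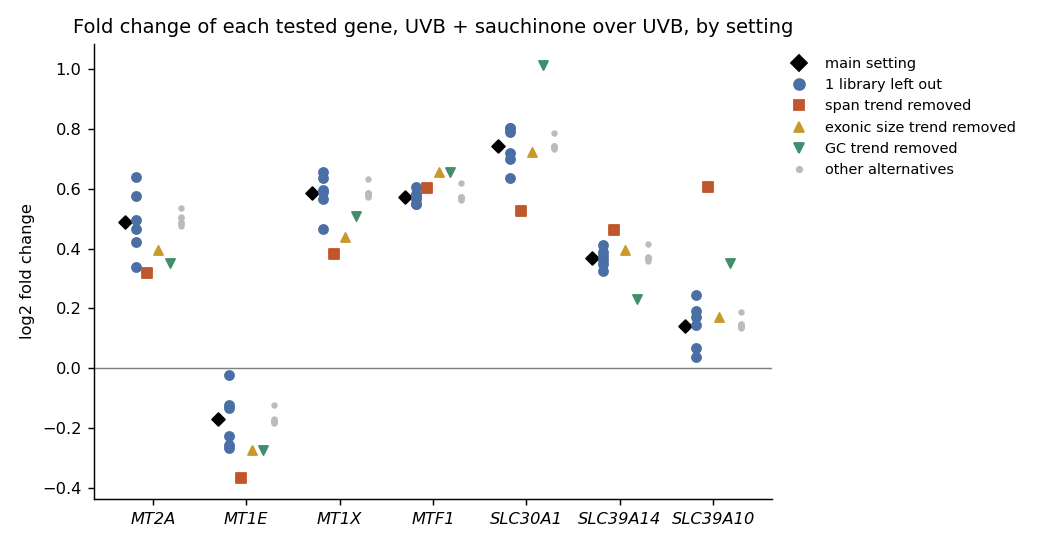
Log2 fold change of UVB + sauchinone over UVB (y axis) for each of the 7 tested genes in the fit as reported (black diamond) and under 17 alternatives, with fits that leave out 1 library in blue and fits after removal of a span, exonic size or GC trend in orange, yellow and green. MTF1 stays between 0.55 and 0.66, while SLC39A10 runs from 0.037 to 0.61, and no gene crosses 0.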

How the data were processed

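RNA of 6 libraries was sequenced in pairs of reads. The authors deposited raw counts per gene, not normalised, and FPKM values, which could be recomputed from counts, exonic size and library total to within 0.006 in 100% of values. The genome build was GRCh38, per the submitters' processing notes; for aligner, counter, annotation release and strand setting, none is named in the sources used here, so antisense reads may not be separated. Poly(A) selection or removal of ribosomal RNA was used, per the labels' protocols, without saying which.

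The test used edgeR 4.0.16 under R 4.3.3: filterByExpr (15704 genes), TMM, quasi-likelihood test of UVB + sauchinone against UVB without covariates, two-sided, Benjamini-Hochberg adjustment over all genes tested, threshold 0.05. Each SE is the log2 fold change divided by the root of F. The procedure was tested on simulated data. Alternatives were DESeq2 1.42.0, limma-voom (limma 3.58.1), other normalizations and filters, a replicate block, each library left out, and removal of trends with span, exonic size and GC content (GENCODE release 29, 98.2% of tested genes), the last added after the data were seen. Named genes were all members, and of other lists the 3 called genes with the smallest p, detected genes of the metallothionein, SLC30 and SLC39 lists, and the 5 genes most alike in pattern; others are marked as named after their values were seen. Members and lists were chosen with earlier results of these data known. Promoters came from RefSeq (GRCh38.p14). Likeness was the Pearson correlation of log2 CPM over the 6 libraries.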

Additional observations from a re-analysis of the deposited data

How the results depend on the processing

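Under the 17 alternatives 6718 to 8185 genes were called, against 7786, and 4 to 7 members, against 5. Leaving out 1 library gave 6718 to 7914 genes and 4 to 6 members. MT2A, MTF1, SLC30A1 and SLC39A14 kept their calls and direction in all 17. MT1X lost its call in 3 (span, exonic size, and without UVB + sauchinone replicate 1), MT1E gained one in 2 and SLC39A10 in 3, and no tested member changed sign. With the replicate number as a replicate block 7280 genes and 5 members were called. Same-numbered libraries did not deviate together (correlations 0.0061, −0.070 and −0.029), and no library correlated best with its own number in the other group. Pairing by number is not stated and was not seen, but 3 libraries per group are too few to exclude a weak one. Removing the trend with span moved MT2A (0.32), MT1X (0.38), MT1E (−0.37) and SLC39A10 (0.61) by more than 1.5 times. Removing that with GC content moved SLC39A14 (0.23), MT1E (−0.27) and SLC39A10 (0.35) likewise, and removing that with exonic size moved MT1E (−0.27). Leaving out 1 library could also move MT1E (−0.27 to −0.022) and SLC39A10 (0.037 to 0.24) by more than 1.5 times. The cause was not tested. With no filter on low counts, MT1F, MT1M and MT1G did not pass (edgeR adjusted p = 0.99, 0.71 and 0.18). The depth limits MT1F, MT1M and MT1G most, and MT1X next.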
